A study of Homo sapiens with 12 samples.

Results

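RNA of the 80S fraction was compared between HEK293 cells that expressed S38A RPL12 and HEK293 cells that expressed wild-type (WT) RPL12. The comparison rests on the input libraries of both lines, 2 of S38A and 2 of WT, which make up 4 of the 12 libraries of the study. HEK293 is an established human embryonic kidney line. In the S38A cells a FLAG/HA-tagged RPL12 was overexpressed in which alanine, which cannot carry a phosphate, replaces a serine. In the WT cells the same construct held the unchanged coding sequence. Both lines were stable Flp-In T-Rex integrants grown out of monoclonal, hygromycin-resistant colonies, per the labels' protocols, and they are not described as lacking their own RPL12. Form and line therefore coincide and cannot be told apart. The other libraries were inputs of another line, which expressed the S38D form (aspartate, used as a mimic of phosphoserine), and anti-FLAG immunoprecipitates (IP) from the same 80S fractions. Each input came from an aliquot taken from a pooled sucrose gradient fraction before IP. Per the labels, the pooled fractions of every line received cycloheximide, an inhibitor of elongation, and polyadenylated RNA was sequenced. No antibody was used on the input, so it holds the RNA of the whole fraction, with tagged and untagged ribosomes alike.

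An 80S particle is a single complete ribosome, with or without a messenger RNA. RPL12, also called uL11, belongs to the large ribosomal subunit, where it sits at the base of the stalk that recruits translation factors during elongation. The study title ties the phosphorylation of this protein to translation in mitosis. The input comparison asks whether RNA present with 80S ribosomes differed between the lines before any selection through the tag.

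The S38A inputs held 8679169 and 8723130 gene counts and the WT inputs 8494734 and 7434431, with 23260 to 24547 gene identifiers detected per library. The deposited tables give Ensembl identifiers without names, and the reference used here paired 0 of them with a symbol. Genes are therefore given by identifier, the level of RPL12 itself was not analysed here, and the cell type markers and the 39 gene lists drawn up by symbol could not be applied. The labels do not say that replicates were separate cultures, so the p-values rest on a spread among libraries that may be technical only. The second S38A input stood apart. Its correlation with the other inputs in log2 CPM (counts scaled to library size), taken across genes, was 0.963 to 0.976, and on the first principal component (33.0% of the variance) it lay at 42.7 and the first S38A input at 8.49, with the WT inputs at -13.2 and -35.2. The 2 S38A inputs differed from each other by a median of 0.244 on the log2 scale, and the 2 WT inputs by 0.204. Between the lines the second S38A input differed by 0.326 and 0.342 from the WT inputs. The first differed by 0.214 and 0.220 from them, less than it differed from its own replicate.

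No gene passed the test between S38A and WT inputs, and more genes than uniform p-values give had a small unadjusted p. Among 16728 genes tested, 0 were called (0% of all) by the quasi-likelihood test of edgeR at Benjamini-Hochberg adjusted p under 0.05, and the lowest adjusted p was 0.17. At unadjusted p under 0.05, 2566 genes differed (15.3%), against 836 for uniform p-values. Of these, 1482 were higher in S38A (8.86%) and 1084 lower (6.48%). This split depended on the scaling and the model: with total counts 1843 were higher and 801 lower, with spike-in scaling 8 and 11, and with all 12 libraries in voom with the fraction as a random block 1185 and 1192. Their changes were mostly small, with a median size of 0.58 on the log2 scale, and 2-fold or larger differences were seen in 243 genes on the higher side and 123 on the lower. Across all genes tested the log2 change ran from -0.62 at the 5th percentile to 0.73 at the 95th, and the median was -0.02. Both S38A inputs lay above both WT inputs in 3995 genes (23.9%) and below both in 3987 (23.8%), together 47.7%. For exchangeable libraries 33.3% of genes would on average show no overlap.

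The number of calls depended on the tool and on single libraries. DESeq2 called 419 of the 11539 genes for which it gave an adjusted p (3.63%), 288 higher in S38A (2.50%) and 131 lower (1.14%). In edgeR without a filter on low counts 586 genes were called higher (1.92%) and 338 lower (1.11%), and 414 of the 419 DESeq2 calls were among them. That fit tested 30566 genes, and it gave no weight to a gene's own spread, since its prior degrees of freedom were infinite (6.39 in the filtered fit). Limma voom with sample quality weights called 0 genes, with 2412 at unadjusted p under 0.05. Without the first S38A input edgeR called 495 genes, and without the second 2, both lower (0.0116%), with 3746 and 1104 genes at unadjusted p under 0.05. Without the first WT input 11 were called, all higher (0.0635%), and without the second 0. In each such fit the lone library was assumed to vary like the other groups.

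**Figure D1:**
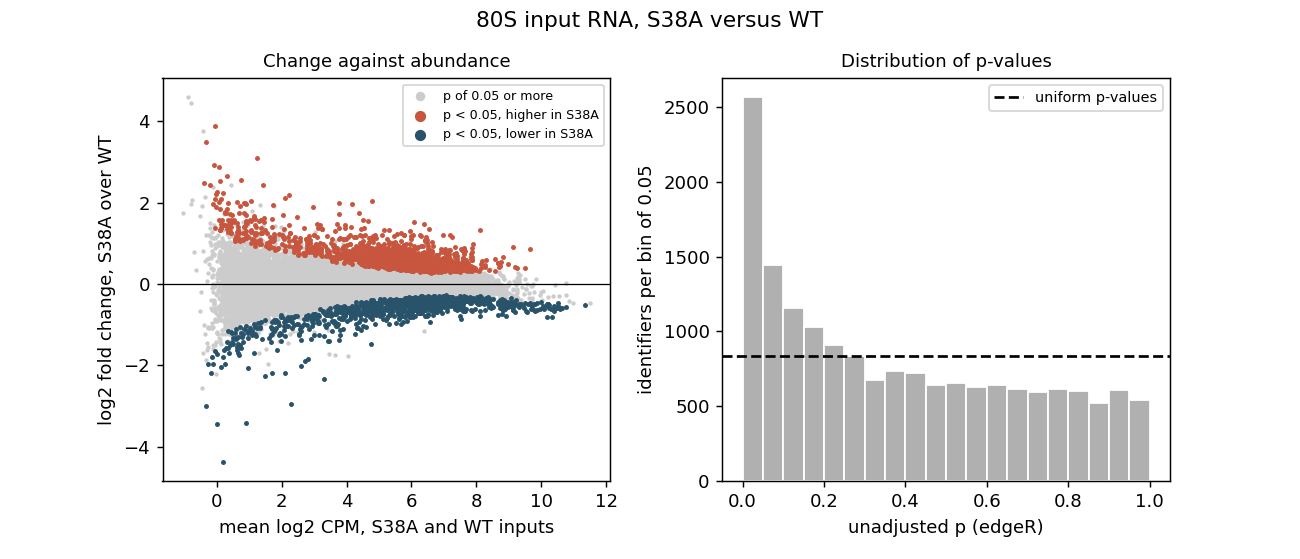
The left panel plots the log2 fold change of S38A over WT inputs against the mean log2 CPM of the 4 libraries, 1 point per gene identifier, coloured where the unadjusted edgeR p was under 0.05. The right panel counts identifiers per bin of p, with the level of uniform p-values dashed. The first bin holds 2566 identifiers against 836 for uniform p-values, and the coloured points at the highest abundance lie mostly below 0.

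The identifiers of lowest p among those without overlap between S38A and WT inputs are given as values, since none passed in the main test. Lack of overlap was a condition of the choice, and low p favours a small spread within lines. Neither is further support. ENSG00000133858.11 stood at 93.0 and 136 CPM in S38A inputs, against 41.0 and 39.3 CPM in WT inputs. It stood higher in both S38A libraries, without overlap, as the choice required. The fitted difference was 2.85-fold (log2 1.51, SE 0.19, edgeR adjusted p = 0.17). ENSG00000214021.11 had 210 and 239 CPM in S38A inputs, against 104 and 98.2 CPM in WT inputs. The fitted difference here was 2.22-fold (log2 1.15, SE 0.16, edgeR adjusted p = 0.17), and the spread within each line was small beside it.

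On the lower side, ENSG00000233922.1 had 16.0 and 16.5 CPM in S38A inputs, against 51.5 and 38.9 CPM in WT inputs (log2 -1.48, SE 0.21, edgeR adjusted p = 0.17). ENSG00000186417.9 had 3.33 and 3.23 CPM in S38A inputs, from 29 reads in each library, against 11.5 and 12.8 CPM in WT inputs (log2 -1.88, SE 0.28, edgeR adjusted p = 0.17). The S38A libraries lay close together and below both WT libraries in both cases. DESeq2 called ENSG00000133858.11 (adjusted p = 1.11e-08), ENSG00000214021.11 (3.16e-07) and ENSG00000233922.1 (2.43e-05), and gave no adjusted p for ENSG00000186417.9. Without a filter all 4 passed in edgeR, with adjusted p of 2.31e-14, 1.86e-10, 2.51e-07 and 2.09e-05 in the order named here. Without the first S38A input they also passed (edgeR adjusted p = 0.032, 0.032, 0.040 and 0.041). Over the 18 alternatives the range of the log2 change was 1.13 to 1.76 for ENSG00000133858.11 and 0.71 to 1.23 for ENSG00000214021.11, with the lowest under spike-in scaling. It was -2.02 to -1.26 for ENSG00000233922.1.

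The S38D inputs place these 4 identifiers differently. ENSG00000133858.11 had 81.5 and 75.1 CPM in S38D inputs and ENSG00000214021.11 had 182 and 139 CPM, between the levels of the other lines. ENSG00000233922.1 had 16.9 and 19.8 CPM in S38D inputs, near its S38A level. ENSG00000186417.9 had 8.93 and 10.2 CPM there, nearer its WT level. S38D versus WT shares the WT libraries with the main comparison, and none of the 4 passed in it (log2 0.96, 0.66, -1.30 and -0.34, edgeR adjusted p of 1.00, 1.00, 0.92 and 1.00).

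**Figure D2:**
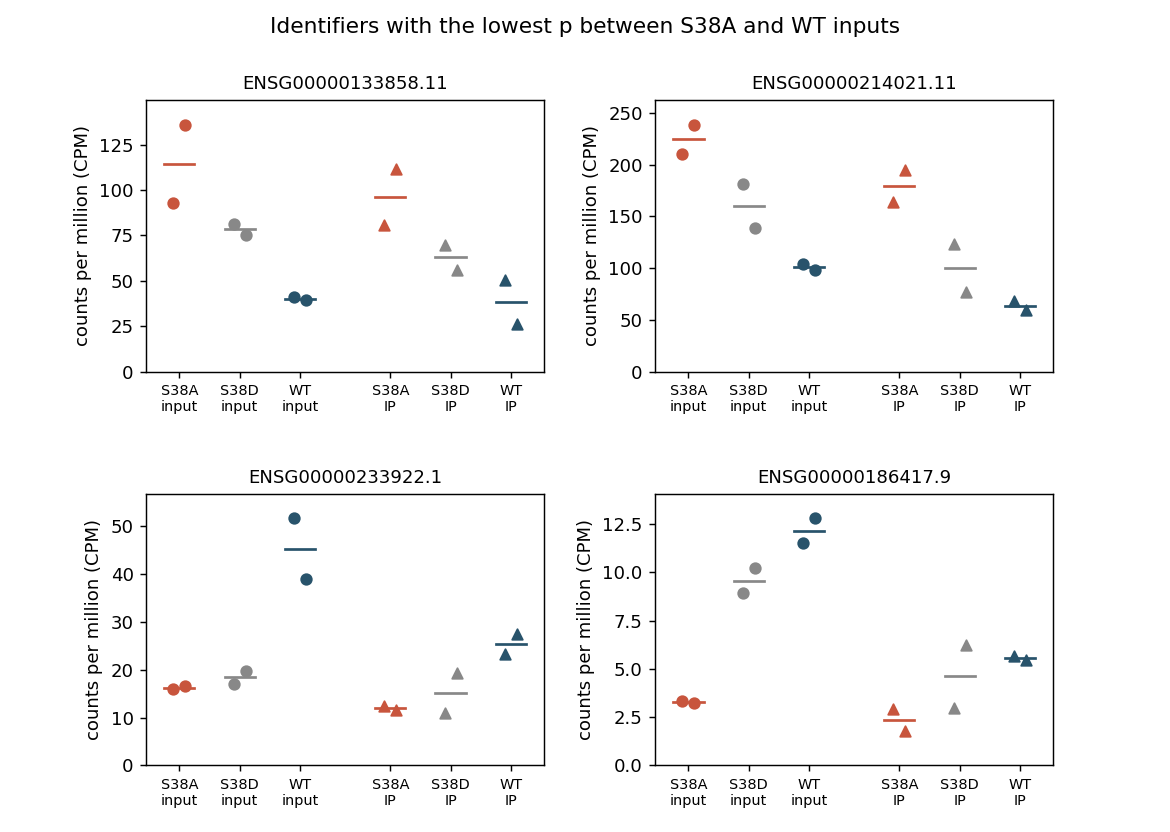
Points give CPM per library for the 4 identifiers named by lowest p, circles for inputs and triangles for IP libraries, with a line at the mean of each pair. In the inputs both S38A libraries lie above both WT libraries in the upper panels and below both in the lower panels, as the choice required.

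The most abundant RNAs lay lower in S38A than in WT inputs, by more in the second S38A library than in the first. Abundance is the mean CPM of the 4 libraries and is not corrected for transcript length, and these groups were formed after the data had been seen. Of the 100 most abundant identifiers, all at 592 CPM or more, 81 had a negative log2 change, 47 were lower at unadjusted p under 0.05 (47.0%, against 6.48% of all genes) and 5 were higher (5.00%, against 8.86%). Their median log2 change was -0.44, beside -0.02 for all genes, and 54 of them lay below -0.4, as did 12.7% of all genes. Both S38A inputs lay below both WT inputs in 66 of the 100 (66.0%, against 23.8% of all genes). None of the 100 passed at adjusted p under 0.05 in the edgeR fit. DESeq2 called 17 lower (17.0%, against 1.14% of all genes) and 2 higher (2.00%, against 2.50%).

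The difference was smaller over wider sets of the ranking, each of which includes the narrower ones. The median log2 change was -0.19 in the 500 most abundant, -0.14 in the 1000 and -0.08 in the 2000 most abundant identifiers. The quartiles of abundance held 4182 genes each, and over all genes 8.86% were higher and 6.48% lower at unadjusted p under 0.05. Among genes above 75.9 CPM, the highest abundance quartile, 446 were higher and 477 lower, with a median log2 change of -0.04. In the quartile from 33.3 to 75.9 CPM, 512 were higher and 256 lower, and in the quartile below it 330 and 223. In the lowest quartile 194 were higher and 128 lower. Median log2 changes in these lower quartiles were -0.0030, -0.0034 and -0.0091, in that order. Changes are easier to detect at high counts, so these counts are not directly comparable between quartiles.

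The 100 most abundant identifiers took 9.89% and 7.82% of gene counts in S38A inputs and 10.5% and 11.4% in WT inputs. The second S38A input lay lowest by far. S38D inputs held 9.85% and 9.99%, about as much as the first S38A input. The median log2 difference over these 100 identifiers was -0.11 and -0.27 for the first S38A input against the WT inputs, and -0.59 and -0.76 for the second. Without the second S38A input the median was -0.21, with 13 of the 100 lower and 3 higher at unadjusted p under 0.05, beside 2.89% and 3.53% of all genes. Without the second WT input it was -0.33, with 6 lower and 2 higher, beside 3.90% and 5.39% of all genes, so the count was then near that of all genes. Without the first WT input it was -0.49, with 31 lower and 3 higher, beside 4.11% and 6.65%. Without the first S38A input it was -0.70, with 67 lower and 6 higher, beside 10.2% and 11.4%. In that fit 44 of the 100 passed as lower and 2 as higher at edgeR adjusted p under 0.05, beside 1.12% and 1.73% of all genes. With total counts the median was -0.39, beside 0.04 for all genes.

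Cell cycle markers were examined as lists taken from the human marker pairs of the scran package, which hold Ensembl identifiers. In the cell cycle, S is the phase in which DNA is copied, G2 and M the stretch from there through mitosis, and G1 the stretch before S. The lists are not independent support, since their shift in these inputs was known when they were taken up. Markers of S and of G2M lay slightly higher in S38A than in WT inputs, and none of them passed singly. Of 251 S markers tested, 60 were higher at unadjusted p under 0.05 (23.9%, against 8.86% of all genes) and 9 lower (3.59%, against 6.48%). Their median log2 change was 0.08, with the middle of the list running from -0.17 to 0.37 (25th to 75th percentile). Both S38A inputs lay above both WT inputs for 96 S markers (38.2%, against 23.9%) and below both for 43 (17.1%, against 23.8%).

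Of 208 G2M markers, 38 were higher at unadjusted p under 0.05 (18.3%) and 2 lower (0.962%), with a median log2 change of 0.08. Both S38A inputs lay above both WT inputs for 71 of them (34.1%) and below both for 35 (16.8%). Of 239 G1 markers, 19 were higher (7.95%) and 15 lower (6.28%), near the shares of all genes, and the median was -0.05. No member of the 3 lists passed at adjusted p under 0.05 in edgeR. DESeq2 called 2.50% of all genes higher and 1.14% lower. It called 16 of 241 S markers higher and 2 lower (6.64% and 0.830%), and 11 of 203 G2M markers higher and 0 lower (5.42% and 0%). For G1 markers the counts were 3 and 1 of 229 (1.31% and 0.437%), below the shares of all genes. In RNA of whole fractions, more cells in a phase and more of these RNAs per cell cannot be told apart.

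**Figure D3:**
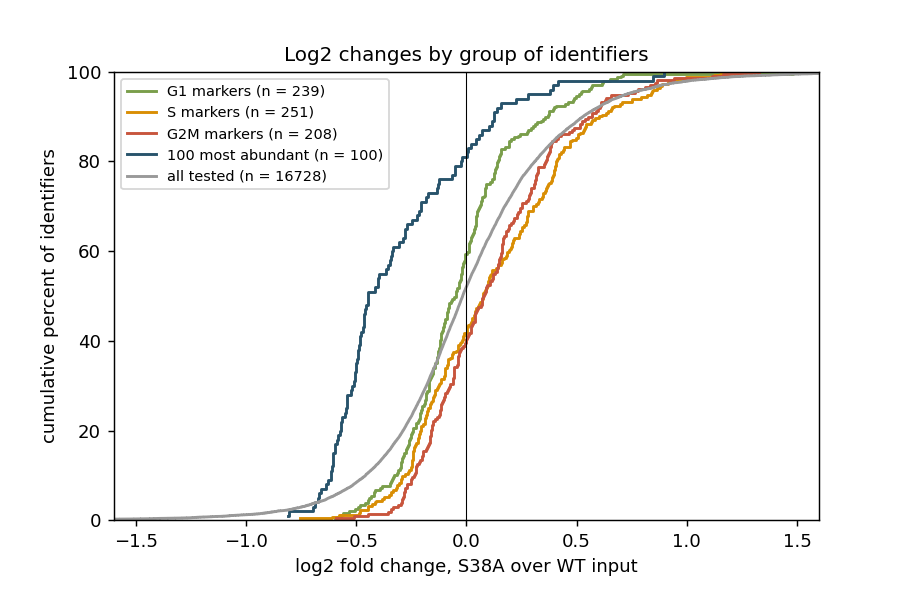
Each step line gives the cumulative percent of identifiers at or below a log2 fold change of S38A over WT inputs, for the G1, S and G2M markers, the 100 most abundant identifiers and all 16728 tested. The S and G2M lines run right of all genes around 0, with medians of 0.08, and the line of the abundant identifiers runs far to the left, with a median of -0.44.

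The shift of the S and G2M lists was small in every library. Relative to the mean of the 6 inputs, the median S marker deviated by 0.02 and 0.08 on the log2 scale in S38A inputs and by -0.07 and -0.02 in WT inputs. G2M markers deviated by 0.02 and 0.06 in S38A inputs and by -0.09 and 0.0016 in WT inputs, so the S38A inputs lay above the WT inputs in both lists. In S38D inputs S markers deviated by 0.0091 and 0.0019, between the other lines, and G2M markers by -0.014 and 0.028. For G2M markers the second S38D input thus lay above the first S38A input, at 0.024. The summed level of the S markers was 24431 and 25217 CPM in S38A inputs and 23616 and 23985 CPM in WT inputs. That of the G2M markers was 17711 and 18319 CPM in S38A inputs and 16681 and 17556 CPM in WT inputs. These sums do not overlap between S38A and WT inputs. For G2M markers the gap between the nearest libraries of both lines was smaller than the gap between replicates of either line, and for S markers it was smaller than that of S38A and larger than that of WT. G1 markers overlapped, at 19373 and 18373 CPM in S38A inputs and 19119 and 20328 CPM in WT inputs. In S38D inputs the sums were 24382 and 24215 CPM for S markers, above both WT inputs and below both S38A inputs. For G2M markers they were 17311 and 17659 CPM.

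Single libraries set much of the size of these counts. Without the second S38A input 27 S markers were higher and 4 lower at unadjusted p under 0.05 (10.7% and 1.59%), beside 3.53% and 2.89% of all genes, and 15 G2M markers were higher and 2 lower (7.21% and 0.962%). Without the first WT input the shares were 16.7% higher and 2.38% lower for S markers and 9.62% and 1.44% for G2M markers, beside 6.65% and 4.11% of all genes. Without the second WT input they were again 16.7% and 2.38% for S markers and 14.9% and 0.481% for G2M markers, beside 5.39% and 3.90% of all genes. The medians of both lists were positive in each of these fits, between 0.04 and 0.11. Without the first S38A input 73 S markers were higher and 27 lower (29.0% and 10.7%), beside 11.4% and 10.2% of all genes. In that fit 17 S markers passed as higher and 1 as lower at edgeR adjusted p under 0.05, and 11 G2M markers passed as higher and 0 as lower. These are 6.75% and 0.397% of the S markers and 5.29% and 0% of the G2M markers, beside 1.73% and 1.12% of all genes.

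**Figure D4:**
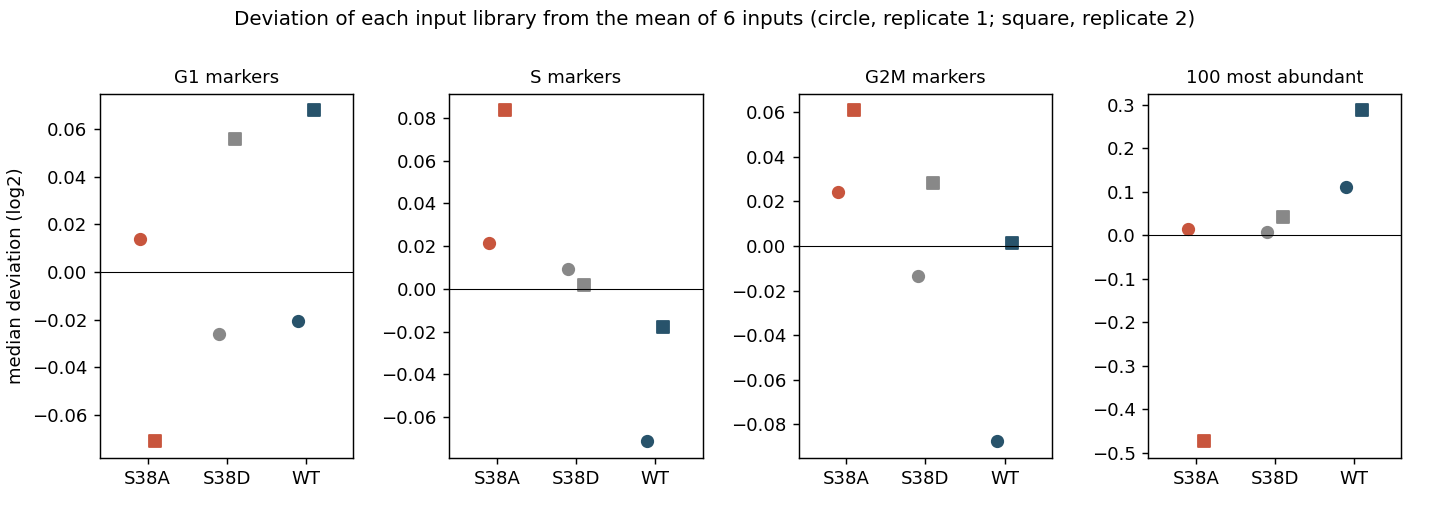
Points give, for each input library, the median over a list of the log2 CPM deviation from the mean of the 6 inputs, with circles for replicate 1 and squares for replicate 2. The vertical scales differ between panels. For the 100 most abundant identifiers the second S38A input lies at -0.47, the first S38A input at 0.01 beside both S38D inputs, and the WT inputs at 0.11 and 0.29.

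The IP libraries of the same fractions give a second measurement of each line, made after selection with the FLAG antibody. They come from the same fractions as the inputs and are not independent replicates of the lines. They held 6150315 and 7430881 gene counts in S38A and 3186164 and 5048911 in WT, so depth moved with the line, and its part in the IP values was not tested. Of 419 genes that DESeq2 called between the inputs, 402 (95.9%) had the same sign between S38A and WT in IP, as did 11133 of 15058 genes tested in both (73.9%). In IP, 334 of the 419 (79.7%) had that sign with unadjusted p under 0.05, against 2455 of all 15058 (16.3%). The 419 were selected for low p in inputs of the same fractions, which favours a shared sign. Their higher shares are therefore no independent support. The cell cycle lists were also counted in IP, and their difference from the inputs was not tested. Of 248 S markers, 35 were higher and 23 lower in S38A there (14.1% and 9.27%, against 8.26% and 9.29% of all genes), and of 207 G2M markers 16 were higher and 20 lower (7.73% and 9.66%). Their medians in IP were 0.04 and -0.05. By library, the median S marker deviated by 0.0071 and 0.061 in S38A IP and by -0.0060 and -0.087 in WT IP, the same order as in the inputs. The median G2M marker deviated by -0.0061 and -0.029 in S38A IP. Both values lay between those of the WT IP libraries, 0.165 and -0.117. Of 237 G1 markers, 11 were higher and 32 lower (4.64% and 13.5%), with a median of -0.14, beside -0.01 for all genes. The 100 most abundant identifiers again lay low in S38A, with a median log2 change of -0.63. At unadjusted p under 0.05, 54 were lower (54.0%, against 9.29% of all genes) and 3 higher (3.00%, against 8.26%). They took 12.6% and 10.1% of gene counts in S38A IP and 14.8% and 15.8% in WT IP, with no overlap.

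For the 4 identifiers above, the IP values leaned the same way, which their choice by inputs of the same fractions favours. ENSG00000133858.11 had 80.8 and 112 CPM in S38A IP, against 50.2 and 26.1 CPM in WT IP (log2 1.36, SE 0.29, edgeR adjusted p = 0.092). ENSG00000214021.11 had 164 and 195 CPM in S38A IP, against 68.2 and 59.4 CPM in WT IP (log2 1.50, SE 0.25, edgeR adjusted p = 0.076). ENSG00000233922.1 had 12.3 and 11.6 CPM in S38A IP, against 23.3 and 27.5 CPM in WT IP (log2 -1.09, SE 0.31, edgeR adjusted p = 0.13). These groups do not overlap, and none of the 3 passed. ENSG00000186417.9 had 2.92 and 1.80 CPM in S38A IP, against 5.66 and 5.46 CPM in WT IP, from 15 to 27 reads a library (log2 -1.24, SE 0.52, edgeR adjusted p = 0.23).

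Between S38A and WT IP libraries 1 of 15081 genes passed (0.00663%), ENSG00000188211.4, which was picked out here after its values were seen. It had 79.1 and 93.2 CPM in S38A IP, against 22.6 and 17.0 CPM in WT IP, so its groups lay far apart (log2 2.14, SE 0.26, edgeR adjusted p = 0.027). In the inputs it had 115 and 167 CPM in S38A, against 60.5 and 41.4 CPM in WT (log2 1.46, SE 0.23, edgeR adjusted p = 0.17; DESeq2 adjusted p = 8.05e-07), the sixth lowest p on the higher side. Whether the S38A versus WT difference itself differed between IP and input was tested as an interaction over all 12 libraries. In edgeR 0 of 16920 genes passed, the lowest adjusted p was 1.00, and the unadjusted p was under 0.05 for 393, fewer than uniform p-values give. That fit did not pair the IP and input of a fraction. In voom with the fraction as a random block, the fitted correlation within a fraction was 0.50. The 0 calls therefore do not show that the difference was the same in IP and input. The count of 1 call in IP rested on single libraries: it was 0 without the first S38A IP library, 3 without the second, 11 without the first WT IP library and 1160 without the second.

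The share of spike-in RNA did not separate the lines, and it varied more between WT replicates than between S38A replicates. Per the labels, equal amounts of ERCC spike-in, a set of synthetic RNAs, went to equal amounts of input RNA. ERCC sequences took 0.342% and 0.211% of counts in S38A inputs, with 95% Clopper-Pearson intervals of 0.338% to 0.346% and 0.208% to 0.214%. They took 0.116% and 0.484% in WT inputs, with intervals of 0.114% to 0.119% and 0.479% to 0.489%. The intervals cover counting error only, and the WT libraries enclose both S38A libraries. The mean was 0.277% ± 0.0923 in S38A and 0.300% ± 0.260 in WT inputs (SD, n = 2 each), and a two-sided exact permutation test over the 6 partitions of the 4 libraries gave p = 1, where the smallest possible is 0.333. The second WT input held 4.16 times the share of the first. Gene counts per ERCC count were 858 and 206 in WT inputs, 292 and 472 in S38A inputs and 285 and 302 in S38D inputs. The first WT input thus lay highest, and the part of that library in the spike-in scaling was not tested. Scaling to these spike-ins moved the median log2 change of all genes to -0.44 and left 19 genes at unadjusted p under 0.05 and 0 calls in edgeR. S and G2M markers lay 0.13 and 0.12 above it, G1 markers at -0.03 and the 100 most abundant identifiers at -0.42 from it.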

How the data were processed

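Each library's table, as deposited by the authors, lists unnormalised counts for 57820 Ensembl identifiers and 92 ERCC spike-ins. The tools named in the submitters' processing notes are bcl2fastq 2.16.0.10, STAR 2.4.2a and DESeq2, and the build is hg19. The sources used here do not give how reads were counted, whether by strand, or on which annotation. Genes that overlap, lie antisense or have near-identical copies are therefore uncertain.

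ERCC counts stayed out of library sizes. Counts were fitted in R 4.3.3 with edgeR 4.0.16 over the 6 inputs (filterByExpr with a minimum count of 10, TMM scaling, glmQLFit and glmQLFTest, common biological coefficient of variation 15.7%, 3 residual degrees of freedom). The SE is the log2 change divided by the square root of F, and log2 CPM used a prior count of 2. Adjusted p-values are Benjamini-Hochberg over all genes tested. The IP libraries were fitted alone in the same way, and the interaction over all 12 libraries, without pairing the IP and input of a fraction. DESeq2 1.42.0 and limma 3.58.1 were alternatives, and the fits were tested on simulated counts. Replicates differed beyond sampling noise (chi-square per degree of freedom 6.92 in WT and 12.6 in S38A).

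Members and lists were chosen with earlier results of these data known. The rule for named identifiers took those of lowest p in each direction with no overlap between the lines and 5 CPM or more on average. Its demand for a symbol was dropped, and 2 a direction are printed. A cell cycle list took genes found in 20 or more scran 1.30.0 marker pairs of 1 phase, as the higher member in 0.8 or more of these.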

Additional observations from a re-analysis of the deposited data

How the results depend on the processing

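Between S38A and WT inputs the count of calls was 0 in the main edgeR fit, and also with RLE size factors, total counts, spike-in scaling, mean CPM of at least 10, voom, the 4 S38A and WT inputs alone, all 12 libraries, all 12 with the fraction as a random block, and thinned counts. It was 924 with no filter, 419 with DESeq2 and 0 to 495 with 1 input left out, 7 of them without the second S38D input. For IP S38A versus WT, with alternatives added after seeing the data, voom gave 0 calls in place of 1, DESeq2 443, total counts 374, all 12 libraries 124, the replicate block 119, omission of the filter 896, and omission of 1 library 0 to 1160. The cause was not tested. Inputs share replicate numbers that the labels tie to no batch. Differences between replicates correlated at -0.07 between S38A and WT, 0.22 between S38D and WT and 0.12 between S38A and S38D. The numbers were not taken as pairs, since not every correlation was above 0.1, although the second principal component (23.9% of the variance) had every replicate 1 above 0 and every replicate 2 below. The replicate block left 0 input calls, with 2841 genes at unadjusted p under 0.05. Of 70 alternative values of the 4 named identifiers, 14 passed the threshold that the main value had missed, 56 did not, and 0 changed sign. These identifiers were picked for no overlap in the same libraries, so the stable sign is no further support. With spike-in scaling S markers had a median of -0.31 and G2M markers of -0.32, with all genes at -0.44, so both signs reversed. The spike-in difference, -0.0237 percentage points, was -0.0234 with the 34 best covered ERCC sequences. DESeq2 gave no adjusted p to 5189 genes of low counts.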
